A study of Homo sapiens with 9 samples.

Results

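The chaperonin CCT, also called TRiC, is built from 8 related subunits, encoded by TCP1, CCT2, CCT3, CCT4, CCT5, CCT6A, CCT7 and CCT8. These 8 genes were taken by symbol from the 35876 symbols of the deposited table, and all 8 were found and passed the filter on low counts. CCT is an ATP-driven folding chamber of the cytosol made of stacked rings, and each ring holds every subunit in a fixed order. It is known for folding newly made actin and tubulin, and it also folds many proteins with WD40 propellers, among them cell cycle regulators. Because an assembled ring needs all of its subunits, the levels of the 8 mRNAs are of interest both together and against each other.

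The RNA came from HEK293, a line derived from human embryonic kidney, and made up 9 libraries. The genotype labels are CC_Cas9 (3 libraries, here the Cas9 group), CC_Cas9_Cre (3, the Cre group) and CC_Cas9_Flpo (3, the Flpo group), so all groups share Cas9, an RNA-guided nuclease, and whatever CC stands for, which the labels do not explain. Cre cuts and rejoins DNA at loxP sites and Flpo does so at FRT sites. The series title places the samples in work on knockouts that a chemical induces and that can be reversed. The labels give no guide, target, promoter, dose or time, and do not say whether a line was 1 clone or whether replicates were separate cultures, so p-values measure the spread between these libraries.

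Libraries differed widely in depth, from a total of 213907 in Cre replicate 2 to 8833491 in Flpo replicate 1, and the biological coefficient of variation in edgeR was 0.556. No library pair within a group agreed within sampling noise (lowest chi-square per degree of freedom, 10.8). Of 6 genes listed for HEK293, EYA1 and NEFL had counts in all 9 libraries, and PAX2 was at 0 in 8. Levels are CPM, counts scaled to a common library size, after TMM, a correction for library composition. The summed level of the 6 was 48.8 to 53.2 CPM in the Cas9 group, 46.8 to 83.1 in the Cre group and 42.4 to 46.1 in the Flpo group, so the highest Flpo library lay just below the lowest Cre library. Without TMM the sums were 49.5 to 60.1, 56.4 to 109 and 30.2 to 34.1. The labels' protocol speaks of liver. Of 7 hepatocyte genes FGB was at 0 in every library and ALB, FGA, SERPINA1 and TTR in 8 of 9. The exception was Flpo replicate 2 each time, with 5, 5, 2 and 1 counts. APOA1 had 1 to 10 counts in every library, and APOA2 was at 0 in 5 libraries. The summed hepatocyte level was 1.15 to 3.32 CPM in the Cas9 group, 2.57 to 3.73 in the Cre group and 0.346 to 5.11 in the Flpo group. For 4 blood cell genes the sums were 2.49 to 8.03, 0 to 2.44 and 3.62 to 7.82 CPM. PTPRC was at 0 in 7 libraries and HBB in 8, all but Flpo replicate 2. HBA1 was at 0 in 1 library and HBA2 in 5, with at most 22.9 and 26.1 counts. The part of these differences in the CCT results was not tested.

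The 8 genes lie apart in the genome. In GENCODE release 29 (GRCh38, the build the submitters' notes call hg38), CCT3 is on chromosome 1 (156308968 to 156367873, minus strand). Chromosome 2 carries both CCT4 (61868089 to 61888804, minus strand) and CCT7 (73233420 to 73253021, plus strand). CCT5 is on chromosome 5 (10249921 to 10266412, plus strand), TCP1 on chromosome 6 (159778498 to 159789749, minus strand) and CCT6A on chromosome 7 (56051630 to 56063989, plus strand). CCT2 is on chromosome 12 (69585334 to 69601570, plus strand) and CCT8 on chromosome 21 (29055805 to 29073797, minus strand). The longest coding transcripts have 11 to 16 exons. The use of strand is not given in the sources used here, so reads of TCP1 cannot be told apart from those of ACAT2 where their exons overlap, nor CCT4 from COMMD1 and AC107081.2, nor CCT5 from AC012640.4.

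Since the 8 mRNAs moved together between groups, their promoters were compared. RefSeq promoter windows (GRCh38.p14, 250 bases before to 50 after the start) were given for 7 of the 8 genes, with 2 windows each for CCT2 and CCT4. The letters CCAAT, the core of the box bound by the factor NF-Y, were searched on both strands, and 4 of the 9 windows held them (4 of the 7 genes), against 34.6% of all 35116 promoter windows. The matches are shown with their flanks on the gene's strand, 5′ to 3′, with the matching letters (CCAAT, or ATTGG where the match is on the other strand) in capitals. They lie at chr1:156338351-156338379, chr1:156338310-156338338, chr6:159789740-159789768, chr12:69585356-69585384 and chr21:29073695-29073723. Distances are from the RefSeq start, which differs from the end of the GENCODE gene range given above. The CCT2, CCT3 and CCT8 matches therefore lie inside those ranges, and the TCP1 stretch lies partly inside.
CCT3, 75 bases before the start: ctaaggctgtcaATTGGtctgtttttgtg
CCT3, 34 bases before the start: atgggtgcggtgATTGGcgactaccttga
TCP1, 154 bases before the start: atcggctatctaATTGGacaaaaatgccg
CCT2, 91 bases before the start: gcccgtggggctCCAATcaaaatgggacg
CCT8, 63 bases before the start: aagggtgggctaATTGGagagccaggaag
Other letters searched on both strands were found in fewer of the 9 windows. GAANNTTC, a pair of inverted heat shock units, was in 2 of 9 (TCP1 and 1 window of CCT2) and in 6.77% of all windows. CCGGAAG, an ETS-type core, was in 1 of 9 (CCT2) and in 10.3% of all windows. CACGTG, CGCATGCGC and TATAAA were in 0 of the 9, and in 7.26%, 1.92% and 11.5% of all windows. These matches describe letters and do not show that a factor binds.

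As a whole the subunit mRNAs were highest in the Flpo group and lowest in the Cre group. The summed level of the 8 genes was 222, 713 and 1086 CPM in Cas9 replicates 1, 2 and 3. It was 373, 469 and 201 CPM in the Cre replicates. In the Flpo replicates it was 3945, 1139 and 4778 CPM. Flpo replicates 1 and 3 stood far above every other library, while Flpo replicate 2 lay close to Cas9 replicate 3. The mean was 673 ± 434 CPM in the Cas9 group, 347 ± 136 CPM in the Cre group and 3287 ± 1906 CPM in the Flpo group (SD, n = 3 libraries), so the Flpo mean was 9.46 times the Cre mean and 4.88 times the Cas9 mean. In raw counts the 8 genes held between 0.0263% (Cre replicate 3, 234 counts) and 0.355% (Flpo replicate 3, 29929 counts) of a library, with Wilson 95% intervals of 0.0231 to 0.0298% and 0.351 to 0.359%, which cover counting error only. In bulk RNA, fewer cells that make an mRNA and less of it per cell cannot be told apart.

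**Figure D1:**
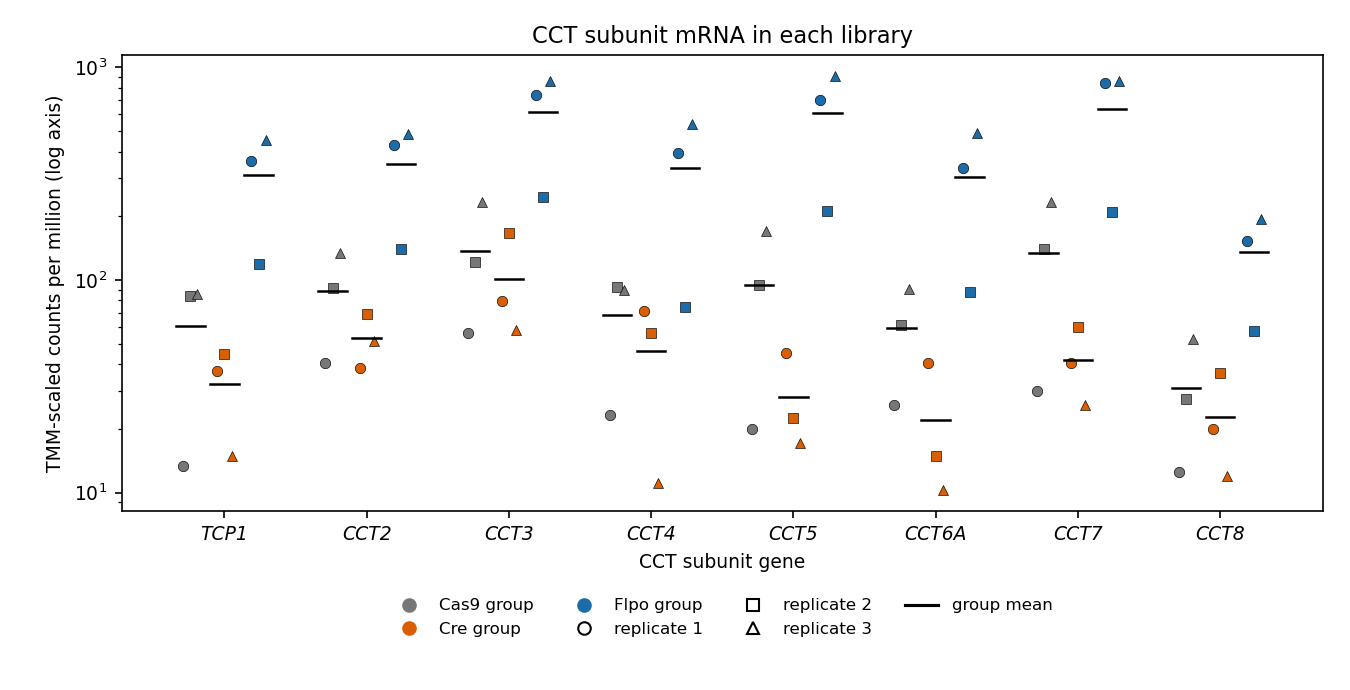
TMM-scaled CPM (log axis) of each CCT subunit gene in each of the 9 libraries; colours mark groups, shapes mark replicates and black lines are group means. Flpo replicates 1 and 3 are the highest libraries for every subunit, and every Cre library lies below every Flpo library for all 8 genes.

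TCP1, the alpha subunit and the first to be described, was at 13.3, 83.7 and 85.9 CPM in Cas9 replicates 1 to 3, at 37.3, 44.8 and 14.8 CPM in the Cre replicates and at 361, 119 and 452 CPM in the Flpo replicates. CCT2, the beta subunit, was at 40.7, 91.4 and 134 CPM in the Cas9 group, 38.4, 69.3 and 51.8 CPM in the Cre group and 428, 139 and 486 CPM in the Flpo group. In both genes all Flpo libraries lay above all Cas9 and all Cre libraries, while the Cas9 and Cre libraries overlapped.

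CCT3, the gamma subunit, was at 56.1, 121 and 231 CPM in the Cas9 group, 79.5, 165 and 58.0 CPM in the Cre group and 735, 244 and 860 CPM in the Flpo group. Flpo replicate 2 was close above Cas9 replicate 3. CCT4, the delta subunit, can by itself form ring-shaped oligomers in its human form. It was at 23.3, 93.0 and 89.7 CPM in the Cas9 group, 71.1, 56.0 and 11.2 CPM in the Cre group and 394, 74.6 and 536 CPM in the Flpo group. Flpo replicate 2 of CCT4 lay below Cas9 replicates 2 and 3 and just above Cre replicate 1.

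CCT5, the epsilon subunit, shares the ability to form rings by itself and is mutated in a hereditary sensory neuropathy. It was at 19.9, 94.7 and 170 CPM in the Cas9 group, 45.3, 22.4 and 17.2 CPM in the Cre group and 698, 211 and 907 CPM in the Flpo group. The Flpo libraries were above all others. CCT6A, the zeta subunit, was at 25.8, 61.4 and 90.2 CPM in the Cas9 group, 40.4, 14.9 and 10.3 CPM in the Cre group and 336, 87.4 and 489 CPM in the Flpo group. Its level in Cre replicate 2 rests on 4 counts, just over the 3-count floor of 11.2 CPM in that library.

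CCT7, the eta subunit, was at 29.9, 139 and 232 CPM in the Cas9 group, 40.4, 59.7 and 25.7 CPM in the Cre group and 840, 207 and 854 CPM in the Flpo group. For CCT6A and CCT7, Flpo replicate 2 lay below Cas9 replicate 3, so those groups overlapped. CCT8, the theta subunit, was at 12.5, 27.5 and 52.8 CPM in the Cas9 group, 20.0, 36.4 and 12.01 CPM in the Cre group and 152, 57.8 and 193 CPM in the Flpo group. The Flpo libraries of CCT8 were above all others, with Flpo replicate 2 close to Cas9 replicate 3.

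The comparison of Cre with Flpo sets the recombinase groups against each other. All 8 subunits were lower in the Cre group and passed an adjusted p of 0.05 in edgeR, where 14.3% of the 11905 tested genes were lower and passed. CCT5 fell by 4.38 on the log2 scale (SE 0.86), or 20.8-fold, with an edgeR adjusted p of 0.0167. CCT7 fell by 3.95 (SE 0.84) and CCT6A fell by 3.72 (SE 0.79), each with an edgeR adjusted p of 0.0167. TCP1 fell by 3.31 (SE 0.78) and CCT4 fell by 2.87 (SE 0.85), with edgeR adjusted p of 0.0196 and 0.0342. CCT2, CCT8 and CCT3 fell by 2.74, 2.65 and 2.63 (SE 0.64, 0.69 and 0.72), with edgeR adjusted p of 0.019, 0.0236 and 0.0268. The median of the 8 was -3.09, against -0.34 for all tested genes. In all 8 the highest Cre library lay below the lowest Flpo library, as in 27.9% of tested genes. Without TMM the median of all genes moved to 0.44, the 8 values ran from -3.59 to -1.82, and 5 of them passed.

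Depth moved with this comparison: every Flpo total was above every Cre total, and the 2 deepest libraries had the 2 highest CCT levels. Flpo replicate 2 and Cas9 replicate 3 ranked 3 and 4 on both. Within the Cas9 group the CCT level rose with the total, from 993902 to 3761779. Within the Cre group the smallest library had the highest CCT level. When library depth (log2 of the total) was added to the edgeR model, all 8 values stayed below 0, from -2.83 to -1.32, but none of the 8 passed (adjusted p from 0.801 to 0.878) and 0 had an unadjusted p under 0.05. After every library was thinned to the smallest total, all 8 passed. Depth and group cannot be told apart in these libraries. Without Cre replicate 2, Cre replicate 3 or Flpo replicate 1 none of the 8 passed in edgeR, and in each of these fits all 8 kept an unadjusted p under 0.05. Without Flpo replicate 3, 3 of 8 passed, and without Flpo replicate 2 all 8 did, with adjusted p from 0.00142 to 0.00361. Among all genes, 0 to 5559 passed in this comparison with 1 library left out. The number of all genes after thinning is given below, under the dependence on the processing.

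**Figure D2:**
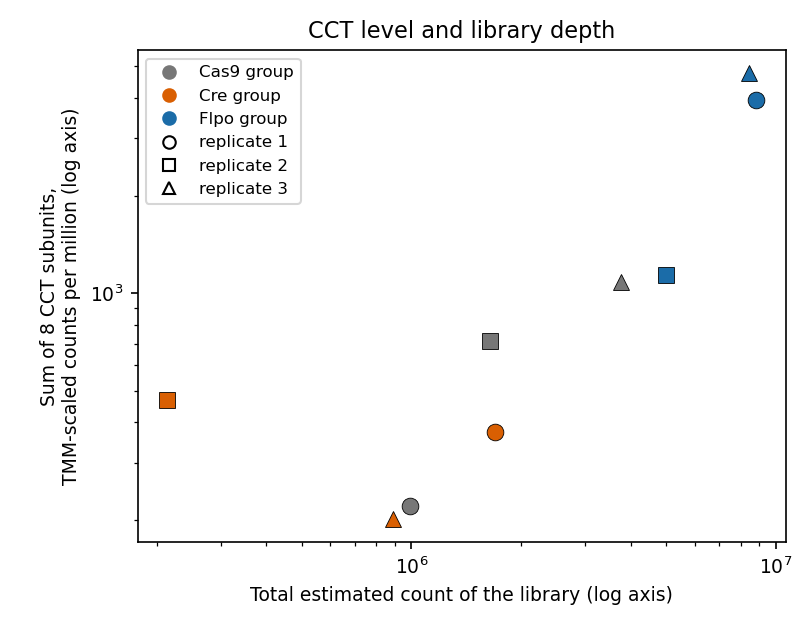
Summed TMM-scaled level of the 8 subunits against the total estimated count of each library (both axes log). Flpo replicates 1 and 3 are highest on both axes, and Cre replicate 2, with the smallest total, has the sixth highest CCT level.

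The comparison of Flpo with Cas9 sets the libraries labelled with Flpo against those labelled with Cas9 only. All 8 subunits had higher fitted levels in the Flpo group, where 51.7% of tested genes were higher whatever the test, by 1.98 (CCT2, SE 0.61) to 2.67 (CCT5, SE 0.79) on the log2 scale, with a median of 2.26 against 0.05 for all tested genes. None of the 8 passed in edgeR (adjusted p from 0.103 to 0.149), where 0.218% of tested genes were higher and passed. All 8 had an unadjusted p under 0.05, from 0.00477 (CCT5) to 0.0151 (CCT4), as did 13.2% of tested genes on the higher side. DESeq2 called 7 of the 8, as did edgeR without a filter on low counts. Both of these fits also called many more of all genes than the main fit. Those numbers are given below, under the dependence on the processing. Depth moved with this comparison too, since every Flpo total (4989524 or more) was above every Cas9 total (3761779 or less). With depth as a covariate the 8 values ran from 0.82 to 2.04. Depth and group cannot be told apart here either. The groups did not overlap for 5 of 8 (TCP1, CCT2, CCT3, CCT5 and CCT8), as for 12.8% of tested genes on the higher side.

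This call depended on Flpo replicate 2. Without it all 8 subunits passed in edgeR, by 2.35 to 3.06 on the log2 scale with adjusted p from 0.0112 to 0.0195. Calls among all genes moved too: 0 to 2685 passed in this comparison with 1 library left out. The summed CCT level of Flpo replicate 2 was 1139 CPM, and that of Flpo replicates 1 and 3 was 3.46 and 4.19 times as high. Flpo replicate 2 was also the only library with counts of ALB, FGA, SERPINA1 and TTR, at 1 to 5 each. The part of this in the call was not tested.

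The comparison of Cre with Cas9 sets the libraries labelled with Cre against the same Cas9 libraries. All 8 subunits had lower fitted levels in the Cre group, from -0.47 (CCT3, SE 0.68) to -1.72 (CCT7, SE 0.77) on the log2 scale, as did 58.4% of tested genes whatever the test. Their median was -0.86, against -0.22 for all tested genes. None of the 8 passed in edgeR (adjusted p from 0.619 to 0.774), nor did any of the 11905 genes on either side (0%), of which 7.38% had an unadjusted p under 0.05. CCT5 and CCT7 had an unadjusted p under 0.05 (0.0477 and 0.0442), where 6.03% of tested genes did on the lower side, and DESeq2 called 0, with 2 at an unadjusted p under 0.05. The groups overlapped for every subunit, where 6.37% of tested genes had all Cre libraries below all Cas9 libraries. CCT3 and CCT8 changed sign, to 0.14 and 0.08, without Cas9 replicate 3. The comparisons with Cas9 share the Cas9 libraries, so their values stand side by side only.

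A single test of any difference among the 3 groups passed in edgeR for 7 of the 8 subunits, against 9.51% of tested genes. CCT5 had the smallest adjusted p (0.0187), and CCT4 missed the threshold at 0.0546. The number was 3 without TMM, and 0 with depth as a covariate or without any 1 of Cas9 replicate 2, Cre replicate 2, Cre replicate 3, Flpo replicate 1 and Flpo replicate 3.

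**Figure D3:**
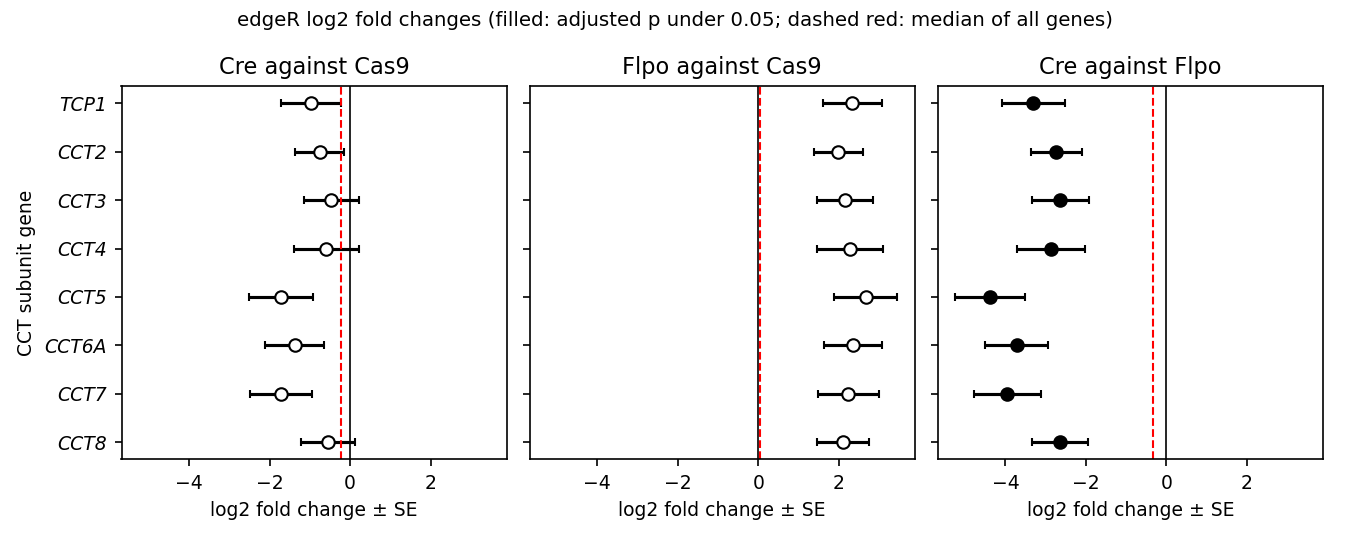
edgeR log2 fold changes of the 8 subunits with standard errors in the 3 comparisons; filled points passed an adjusted p of 0.05 and the dashed line is the median of all tested genes. All 8 points are filled in Cre against Flpo only, where they run from -2.63 (CCT3) to -4.38 (CCT5).

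Balance among subunits was described as each gene's percentage of the 8 subunits' counts in the same library, which does not depend on how libraries are scaled to each other. To rank subunits against each other, counts were divided by transcript length. Per kilobase of the longest coding transcript, CCT3 or CCT7 was the highest subunit in all 9 libraries, at 21.5 to 37.0% of the length-scaled sum. CCT8 was the lowest in 6 libraries. TCP1 was lowest in Cas9 replicate 1, and CCT6A in Cre replicates 2 and 3. The highest subunit was 3.71 to 13.99 times the lowest, with a median over libraries of 4.90. The ratio of 13.99 was in Cre replicate 2, where CCT6A had 4 counts. Per kilobase of coding sequence, whose length differs little between subunits (1464 to 1668 bases), CCT3 or CCT7 was again highest in every library and the median ratio was 4.85. With the median length of each gene's coding transcripts the median ratio was 11.07, so the size of the ratio depended on the length used. That median length is 748 bases for CCT3 and 780 for TCP1, against 1454 to 2624 for the other subunits. The places of CCT3 and TCP1 therefore also depended on the length used. So did the place of CCT5, since its longest transcript (3675 bases) is far longer than its coding sequence (1623 bases). In the Flpo group CCT5 took 12.1 ± 0.51% per kilobase of transcript and 17.9 ± 0.66% per kilobase of coding sequence (SD, n = 3).

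The mix was tightest in the Flpo group, whose libraries also held the most subunit counts. There any 2 libraries differed in count shares by 4.75 to 7.72 percentage points (the share of counts that would have to move to another subunit to make them equal). Within the Cas9 group libraries differed by 9.45 to 18.6 points and within the Cre group by 16.8 to 25.6. Cas9 replicate 1 was 18.6 and 16.4 points from Cas9 replicates 2 and 3. Between Cas9 and Flpo libraries the distance was 5.23 to 19.6 points. Cas9 replicate 3 lay 5.23, 5.67 and 9.79 points from Flpo replicates 1, 2 and 3. Between Cre and Flpo libraries the distance was 13.8 to 28.4 points, a range that overlaps the one within the Cre group. The Cre libraries held only 765, 126 and 234 subunit counts and Cas9 replicate 1 only 266, against 4457 to 29929 in the Flpo libraries. Shares in these small libraries therefore carry more counting error. The part of counting error in the distances was not tested.

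Shares of CCT5 and CCT7 were lower in every Cre library than in every Flpo library. CCT5 took 12.2, 4.78 and 8.54% of subunit counts in Cre replicates 1, 2 and 3 and 17.7, 18.5 and 19.0% in the Flpo replicates. The Wilson 95% intervals of the Cre libraries (10.03 to 14.7%, 2.20 to 10% and 5.60 to 12.8%) end below the lowest Flpo bound of 17.2%. In the Cas9 group CCT5 took 9.01, 13.3 and 15.7%, between the other groups and overlapping with Cre. CCT7 took 10.9 to 12.8% in the Cre group, 13.5 to 21.4% in the Cas9 group and 17.9 to 21.3% in the Flpo group. Thus the Cre and Flpo shares did not overlap for either gene. For CCT7, unlike CCT5, the Wilson 95% intervals did overlap. Those of Cre replicates 2 and 3 (7.97 to 19.6% and 9.13 to 17.7%) reached past the lowest Flpo bound of 17.07%.

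CCT8 showed the opposite order, at 5.36 to 7.76% in the Cre group and 3.86 to 5.07% in the Flpo group. The Cre shares of CCT8 rest on 9.74 to 41.01 counts a library. Their Wilson 95% intervals overlapped with Flpo, as 3.975 to 7.19% in Cre replicate 1 and 4.46 to 5.75% in Flpo replicate 2. CCT3 took 21.4, 35.3 and 28.8% of subunit counts in Cre replicates 1, 2 and 3 and 18.6, 21.4 and 18.0% in the Flpo replicates. Cre replicate 1 and Flpo replicate 2 were nearly equal for CCT3, so those groups overlapped. In Cre replicates 1, 2 and 3 CCT4 took 19.1, 11.95 and 5.55% and CCT2 took 10.3, 14.8 and 25.8%. No test was made on shares, since each share depends on the other 7 subunits.

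**Figure D4:**
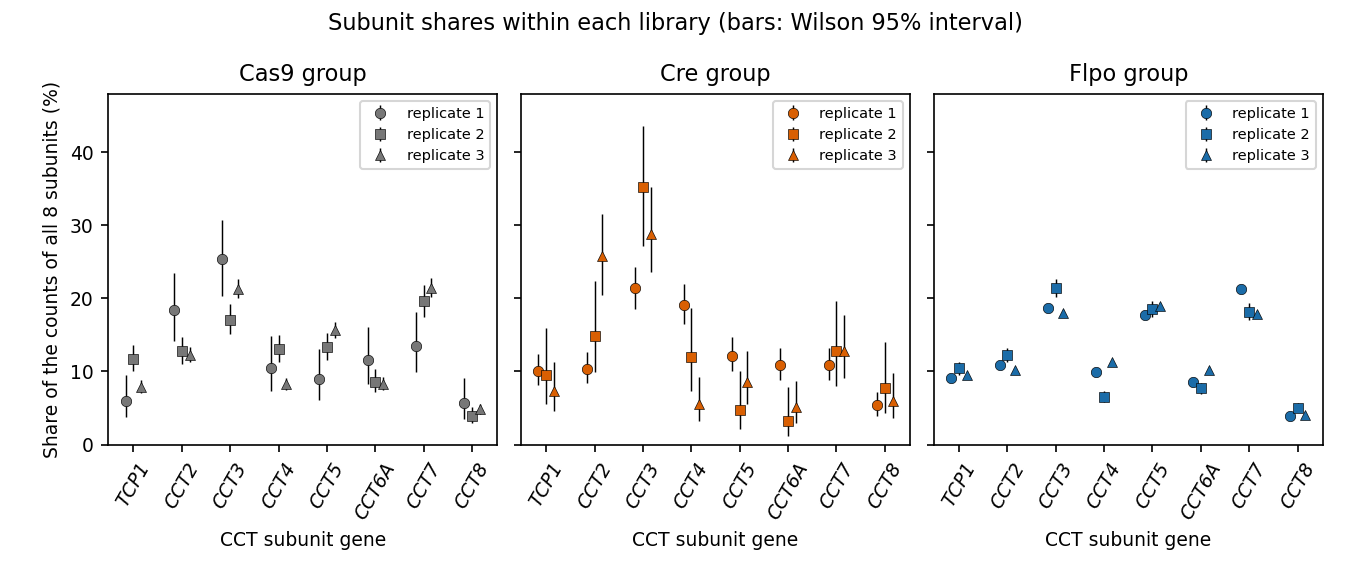
Each subunit's percentage of the counts of all 8 subunits, by library and group, with Wilson 95% intervals (counting error only). In the Flpo group CCT3, CCT5 and CCT7 each take 17.7 to 21.4%, whereas in the Cre group CCT3 takes 21.4 to 35.3% and CCT5 4.78 to 12.2%.

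Across the 9 libraries each subunit followed the mean of the other 7, with Pearson correlations of log2 CPM from 0.946 (CCT4) to 0.988 (CCT7), where the libraries share groups and depth. The genes outside the complex most like the mean of the 8 were PSMA1 (0.998), LDHA (0.996), SDHB (0.996), VDAC3 (0.995) and ATP5F1B (0.995), and 3.28% of tested genes exceeded 0.95. PSMA1 is a proteasome core subunit, LDHA a lactate dehydrogenase, and SDHB, VDAC3 and ATP5F1B act in mitochondria. PSMA1 was at 9.14, 53.4 and 85.3 CPM in the Cas9 replicates, 25.8, 22.4 and 7.87 CPM in the Cre replicates and 529, 101 and 591 CPM in the Flpo replicates. It thus had the same high and low libraries as CCT.

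Some subunit counts depend on how reads were shared with similar sequences. Of the 31-base words in the longest coding transcript, 54.5% of those of CCT5, 37.9% of TCP1, 23.4% of CCT8, 18.1% of CCT6A, 12.8% of CCT4 and 6.40% of CCT7 also occurred in transcripts of other genes, on either strand, and 0% of those of CCT2 and CCT3. For CCT5 most were shared with AC012640.4, and for TCP1 with ACAT2 and the pseudogenes TCP1P1 and TCP1P3. Over the 9 libraries together, symbols of subunit pseudogenes held 10.7% of the joint count for CCT6A, 2.89% for CCT8 and under 0.3% for each other subunit. Single small libraries differed: CCT8P1 held 30.4% of its joint count with CCT8 in Cre replicate 2 (4.3 counts) and 10.9% in Cre replicate 1. TCP1P3 held 7.69% with TCP1 in Cre replicate 2, on 1 count. Summed with these pseudogenes, all 8 subunits still passed in Cre against Flpo. AC012640.4 and ACAT2 were not in those sums, so the effect of reads shared with them was not tested.

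Prefoldin hands unfolded actin and tubulin chains to CCT. It has 6 subunits, of which PFDN1, VBP1, PFDN2, PFDN4 and PFDN5 were tested. In Cre against Flpo 3 of 5 fell and 0 rose in edgeR, with a median of -2.21 against -0.34 for all tested genes, of which 14.3% were lower and passed and 6.17% were higher and passed. VBP1 fell by 3.88 (SE 0.85), PFDN1 fell by 3.49 (SE 0.83) and PFDN5 fell by 2.05 (SE 0.63), with edgeR adjusted p of 0.0175, 0.0197 and 0.0387. PFDN2 and PFDN4 had values of -2.11 and -2.21 with adjusted p of 0.0517 and 0.0797. VBP1 was at 1.66, 10.9 and 15.7 CPM in the Cas9 replicates, 2.92, 3.73 and 6.01 CPM in the Cre replicates and 62.6, 23.3 and 102 CPM in the Flpo replicates. PFDN6 did not pass the filter: it was at 3.44 to 4.99 CPM in the Cas9 group and 2.81 to 6.38 CPM in the Flpo group, and had no counts in the Cre group. A count of 0 allows up to 1.46, 11.2 and 2.57 CPM in Cre replicates 1, 2 and 3, so in Cre replicate 2 a level like that of the other groups was not detectable. Against Cas9, 0 of 5 prefoldin genes passed in edgeR in either group. In the Flpo group 3 were higher with an unadjusted edgeR p under 0.05, as were 13.2% of tested genes. In the Cre group 1 was lower with an unadjusted edgeR p under 0.05, as were 6.03% of tested genes.

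Cofactors of CCT include the phosducin-like proteins PDCL and PDCL3, which bind CCT and help to fold or assemble its substrates, TXNDC9, a related thioredoxin-like protein, and PDCD5, which binds the CCT ring. All 4 tested cofactors fell in Cre against Flpo in edgeR, where 14.3% of tested genes were lower and passed, and PDCL2, with no counts in any library, was untested. TXNDC9 fell by 4.29 (SE 0.85) and PDCD5 fell by 3.93 (SE 0.80), each with an edgeR adjusted p of 0.0167. PDCL3 fell by 3.33 and PDCL fell by 3.16 (SE 1.01 and 0.94), with edgeR adjusted p of 0.0367 and 0.0347. TXNDC9 was at 4.71, 11.5 and 12.6 CPM in the Cas9 replicates, 1.96, 0 and 1.72 CPM in the Cre replicates and 36.7, 11.5 and 49.5 CPM in the Flpo replicates. The Cre counts of TXNDC9 were at most 4.03, close to the 3-count floor. Of the prefoldin-like genes, URI1 fell by 3.43 and PDRG1 fell by 3.55 (SE 0.99 and 0.94, edgeR adjusted p of 0.0315 and 0.025), and the third gene tested did not pass, beside the same 14.3% of tested genes. Against Cas9, none of these genes passed in edgeR in either group. In Flpo against Cas9, 3 of 4 cofactors and 1 of 3 prefoldin-like genes were higher with an unadjusted p under 0.05, as were 13.2% of tested genes. In Cre against Cas9, 2 and 1 were lower with an unadjusted p under 0.05, as were 6.03% of tested genes.

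Genes whose proteins CCT folds were compared in the same way. In Cre against Flpo 3 of 11 actin and tubulin genes fell and 0 rose in edgeR, where 14.3% of tested genes were lower and passed. TUBA1C fell by 4.86 (SE 1.17), TUBB4B fell by 4.41 (SE 1.199) and TUBG1, the gamma-tubulin of centrosomes, fell by 2.80 (SE 0.68), with edgeR adjusted p of 0.0201, 0.0269 and 0.0201. The median of the 11 was -2.77. Of 14 other substrates 3 fell and 0 rose, a share near that 14.3% of all tested genes, with a median of -1.28. CDC20, an activator of the anaphase-promoting complex, fell by 3.35 (SE 0.72), MLST8, a subunit of the mTOR complexes, fell by 3.30 (SE 0.89), and HDAC3, a histone deacetylase, fell by 2.90 (SE 0.76), with edgeR adjusted p of 0.0172, 0.0261 and 0.0244. Of 6 tested tubulin cofactors, which build tubulin dimers after CCT, 1 passed in edgeR: TBCC fell by 3.87 (SE 0.99, adjusted p 0.0227). Their count too was near the 14.3% of all tested genes, and their median was -1.12. Against Cas9, none of the 31 genes in these 3 lists passed in edgeR in either group. In Flpo against Cas9, 10 of 11 actin and tubulin genes were higher with an unadjusted edgeR p under 0.05, with a median of 3.74. So were 3 of 14 other substrates, 0 of 6 tubulin cofactors and 13.2% of tested genes. All Flpo libraries lay above all Cas9 libraries for 5 of the 11 actin and tubulin genes, as for 12.8% of tested genes. Flpo replicate 2 was the lowest Flpo library for each of the 11. ACTB, for example, was at 56576, 4078 and 47327 CPM in Flpo replicates 1, 2 and 3. In Cre against Cas9 the actin and tubulin median was 0.38, with 7 of 11 above 0 and 0 at an unadjusted p under 0.05.

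Over all 8 partner lists, which add the paralogs and the mitochondrial chaperonin, 19 of 47 tested genes fell and 0 rose in Cre against Flpo, beside 14.3% of all tested genes that were lower and passed. The number was 0 with depth as a covariate and 0 without Cre replicate 2, Cre replicate 3 or Flpo replicate 1, and 5 without Flpo replicate 3. With the depth covariate PFDN2, PFDN4, PFDN5, PDRG1, PDCL and TBCC changed sign among the partner genes named, and none of the 8 subunits did.

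Of 5 paralogs of CCT subunits 2 were tested, and 1 fell in Cre against Flpo, where 14.3% of all tested genes were lower and passed. CCT6B, a paralog of CCT6A known from testis and named here after its values were seen, was at 12.8, 7.29 and 3.92 CPM in the Cas9 replicates, 5.87, 18.3 and 8.18 CPM in the Cre replicates and 3.66, 30.5 and 1.92 CPM in the Flpo replicates. It was highest in the smallest Cre library and in Flpo replicate 2, and its value in Cre against Flpo was -0.29 (SE 0.99, edgeR adjusted p 0.838), and 1.78 without Flpo replicate 2. MKKS, a chaperonin-like protein mutated in Bardet-Biedl syndrome, fell by 3.64 (SE 0.97) with an edgeR adjusted p of 0.0256. BBS10, BBS12 and CCT8L2 did not pass the filter on low counts.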

How the data were processed

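Estimated counts per gene symbol for 9 HEK293 RNA-seq libraries (TRIzol RNA, TruSeq RNA kit, per the labels' protocols) were deposited by the authors as 1 table. The submitters' processing notes name Salmon 0.14.1 and hg38. The annotation, filters and use of strand are not given in the sources used here. The deposited estimated counts are not normalized, so they were rounded to whole numbers before testing.

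edgeR 4.0.16 (R 4.3.3) quasi-likelihood tests were fitted to all 9 libraries with TMM scaling, without covariates, on the 11905 genes passing its default filter (minimum count 10, minimum total 15). P-values were Benjamini-Hochberg adjusted over all of these, with a threshold of 0.05. A standard error is the size of the log2 value over the root of its F statistic. DESeq2 1.42.0 was an alternative. Lengths, coordinates and shared words came from GENCODE 29, promoters from RefSeq. Wilson 95% intervals and 3-count floors cover counting error only, since PCR copies were not told apart. The edgeR code was tested on simulated data with less spread between libraries than these data, which checks the code only.

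The members and gene lists were chosen with earlier results of these data known. The text names all 8 members, the prefoldin genes, the CCT cofactors, up to 4 genes per list past the threshold and the 5 genes most correlated with the members. Alternatives were other scalings, filters, tests and library sets, a depth covariate, thinning and a replicate block. Their use on the partner lists was added after seeing the data.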

Additional observations from a re-analysis of the deposited data

How the results depend on the processing

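The 8 subunits kept their direction in Cre against Flpo and in Flpo against Cas9 under all 10 alternatives and without any 1 library. In Cre against Cas9 the exceptions were CCT8 when thinned to the smallest total (0.29) and CCT3 and CCT8 without Cas9 replicate 3 (0.14 and 0.08). With 1 library left out these 2 ranged from -0.97 to 0.14 and from -0.94 to 0.08. Subunits past the threshold in Cre against Flpo numbered 8, but 5 without TMM, 0 with the total count as a covariate and 0 to 8 when 1 library was left out (0 without Cre replicate 2, Cre replicate 3 or Flpo replicate 1). For any difference among the 3 groups the number was 7, but 3 without TMM, 0 with the covariate and 0 to 8 when 1 library was left out. In Flpo against Cas9 it was 0, but 7 without a filter on low counts, 7 with DESeq2, 8 without Cre replicate 2 and Flpo replicate 2 together, and 0 to 8 when 1 library was left out. In Cre against Cas9 it was 0 throughout. The causes of these changes were not tested.

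With the replicate number as a block, 6 of 8 subunits passed in Cre against Flpo and 2 in the test of any difference, and 0 in the comparisons with Cas9. Deviations of same-numbered libraries correlated from -0.549 to 0.527 over the pairs of groups, not every library correlated best with its own number, and nothing in the labels pairs them.

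Among all genes, 2440 passed in Cre against Flpo, against 3976 with DESeq2, 1568 with the replicate block, 1092 after thinning, 0 with the covariate, 5141 without Cre replicate 2 and Flpo replicate 2 together and 0 to 5559 with 1 library left out. In Flpo against Cas9 27 passed, against 12 without TMM, 1169 without a filter, 1065 with DESeq2, 0 with only those groups, 6 with the block, 0 with the covariate, 2966 without Cre replicate 2 and Flpo replicate 2 together and 0 to 2685 with 1 library left out. In Cre against Cas9 0 passed in edgeR (879 at an unadjusted p under 0.05), against 51 without a filter and 4 with DESeq2. For any difference 1132 passed, against 3128 without a filter, 2870 with DESeq2, 426 with the block, 573 after thinning, 0 with the covariate, 3717 without Cre replicate 2 and Flpo replicate 2 together and 10 to 4194 with 1 library left out.

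Applied to the 47 partner genes after seeing the data, the alternatives changed the 19 calls of Cre against Flpo to 15 without TMM, 29 without a filter, 29 with DESeq2, 14 with the replicate block, 13 of 29 tested after thinning, 0 with the covariate, 31 without Cre replicate 2 and Flpo replicate 2 together, and 0 to 31 with 1 library left out. With the covariate PFDN2 (0.88), PFDN4 (1.42), PFDN5 (0.51), PDRG1 (0.91), PDCL (0.16) and TBCC (0.76) changed sign. CCT6B changed sign without TMM (0.41), with the replicate block (0.54) and without Cre replicate 2 and Flpo replicate 2 together (1.37), and ranged from -0.82 to 1.78 with 1 library left out.

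The ratio of highest to lowest subunit (4.90) became 11.07 with median transcript lengths. It was 4.63 to 4.95 with 1 library left out. The summed level moved by less than 1 SD under each alternative, to 467 to 899 CPM (Cas9), 287 to 421 CPM (Cre) and 2542 to 4361 CPM (Flpo) with 1 library left out. In Cre replicate 2 the depth limits levels below 11.2 CPM.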

Other observations

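The mitochondrial chaperonin, a separate folding chamber made of HSPD1 with its lid HSPE1, showed the same order of groups. HSPD1 was at 35.4, 145 and 171 CPM in the Cas9 replicates, 96.8, 58.1 and 37.8 CPM in the Cre replicates and 629, 250 and 822 CPM in the Flpo replicates. HSPE1 was at 10.8, 27.5 and 32.0 CPM in the Cas9 replicates, 3.898, 7.47 and 3.43 CPM in the Cre replicates and 165, 30.1 and 131 CPM in the Flpo replicates. In Cre against Flpo HSPD1 fell by 3.12 (SE 0.72) and HSPE1 fell by 4.65 (SE 0.79), with edgeR adjusted p of 0.019 and 0.0167, where 14.3% of tested genes were lower and passed. Neither passed against Cas9 in edgeR, where HSPE1 stood at -2.46 in the Cre group (adjusted p 0.619) and 2.20 in the Flpo group (adjusted p 0.103).

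Pseudogenes of CCT6A differed in where their counts lay. CCT6P1 had 70.3 and 153 counts in Flpo replicates 1 and 3 and at most 4 in each other library. CCT6P3 had counts in 8 of 9 libraries and held 6.20 to 17.4% of its joint count with CCT6A in those 8. Reads shared with CCT6A make both values uncertain.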
